A study of Mus musculus with 32 samples.

Results

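Regions that carried acetylated histone H3 lysine 27 (H3K27ac) at 2 h after induction of Ikaros and not before it were taken from ChIP-seq peak lists of mouse pre-B cells. The 8 H3K27ac lists were merged into 39289 regions, and 1465 of them (3.73%) overlapped a peak in both 2 h lists and in neither 0 h list. These gained regions were selected on the H3K27ac calls at 0 h and 2 h, so those calls describe them and are not a result. In the opposite direction, 1092 regions (2.78%) were lost, that is called in both 0 h lists and in neither 2 h list. A further 14715 were called in all 8 libraries and are named constant regions here, and 16379 were called in neither 0 h list without being gained.

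B3 cells, an established mouse line that resembles pre-B cells, had received a retrovirus for Ikaros (IKZF1) with an HA tag and the ERt2 domain and had been sorted on GFP. 4-hydroxytamoxifen (4-OHT) at 500 nM moved the fusion into the nucleus. Cells were taken before it (0 h) and 30 min, 1 h and 2 h after it, with 2 replicates for each time and target. HA-Ikaros, CHD4 and H3K27ac were mapped, which gave 24 peak lists. All groups carry the fusion and the 3 later times all received 4-OHT, so an effect of 4-OHT and one of nuclear Ikaros cannot be told apart. Nothing in the labels says that replicates came from separate cultures, so p-values measure the spread between these libraries, which may be technical.

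Ikaros is a zinc finger transcription factor of lymphocyte precursors, where it helps to end the proliferative pre-B stage. It associates with NuRD, a complex in which CHD4 is the ATP-dependent remodeller and histone deacetylases remove acetyl groups. H3K27ac marks active promoters and enhancers, is written by acetyltransferases and removed by deacetylases. At 0 h the cells showed H3K27ac within 1 kb of a transcription start site (TSS) in both libraries at 9 of 10 pre-B marker genes, Rag1 being the exception. The same held for Lck and Gata3 among 6 T cell genes, for Klf1 among 4 erythroid genes, and for 0 of 5 myeloid and 0 of 4 fibroblast genes.

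Each gained region can be read as a stretch of sequence, and 5 are shown to make the classes below concrete. They are 300 bases at the centre of the gained region with the highest mean fold rank at 2 h, and of the first region not yet shown, in the same order, in each of the following classes: Ikaros peaks in both 2 h libraries, CHD4 peaks in both 2 h libraries, H3K27ac calls in all 4 libraries of 30 min and 1 h, and H3K27ac calls in none of these 4. Capitals mark the words GGAA and GGGA and their reverse complements, the core of Ikaros recognition. Sequences are from GRCm38 (mm10).
Psme4 intron, chr11:30782013-30782312, + strand: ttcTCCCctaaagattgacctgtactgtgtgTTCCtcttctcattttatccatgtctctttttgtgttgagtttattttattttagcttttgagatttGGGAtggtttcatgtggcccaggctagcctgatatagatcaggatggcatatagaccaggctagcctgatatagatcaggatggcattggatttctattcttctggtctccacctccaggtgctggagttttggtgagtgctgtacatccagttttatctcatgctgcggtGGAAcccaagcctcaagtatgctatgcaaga
Zfp462 upstream region, chr4:54406313-54406612, + strand: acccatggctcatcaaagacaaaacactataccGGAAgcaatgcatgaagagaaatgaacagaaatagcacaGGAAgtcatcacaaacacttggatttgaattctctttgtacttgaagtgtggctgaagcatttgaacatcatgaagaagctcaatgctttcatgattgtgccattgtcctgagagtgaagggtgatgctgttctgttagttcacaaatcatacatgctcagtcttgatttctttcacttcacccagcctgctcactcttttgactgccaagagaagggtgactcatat
Igkv4-80 region, chr6:69016545-69016844, + strand: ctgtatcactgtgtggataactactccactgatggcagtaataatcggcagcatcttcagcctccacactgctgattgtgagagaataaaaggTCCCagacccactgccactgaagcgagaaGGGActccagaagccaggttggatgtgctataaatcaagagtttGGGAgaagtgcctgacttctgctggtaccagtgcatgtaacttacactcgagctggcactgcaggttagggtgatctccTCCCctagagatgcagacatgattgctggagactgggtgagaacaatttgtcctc
Msh6 intron, chr17:87983283-87983582, + strand: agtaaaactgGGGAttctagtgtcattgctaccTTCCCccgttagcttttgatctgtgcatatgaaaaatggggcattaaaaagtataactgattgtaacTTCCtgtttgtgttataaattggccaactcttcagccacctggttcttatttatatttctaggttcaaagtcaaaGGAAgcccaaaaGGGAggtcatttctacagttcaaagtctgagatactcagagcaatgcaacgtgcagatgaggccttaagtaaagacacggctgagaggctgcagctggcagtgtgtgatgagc
Ints7 intron, chr1:191599090-191599389, + strand: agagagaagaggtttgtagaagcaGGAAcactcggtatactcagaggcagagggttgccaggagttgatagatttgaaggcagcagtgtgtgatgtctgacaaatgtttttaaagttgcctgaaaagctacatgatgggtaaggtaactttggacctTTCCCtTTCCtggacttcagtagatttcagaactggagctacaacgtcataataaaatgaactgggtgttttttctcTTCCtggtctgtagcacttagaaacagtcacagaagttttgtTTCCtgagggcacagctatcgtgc

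The windows held 4, 2, 4, 6 and 6 core words. Such words are frequent in any sequence: GGAA on either strand was in 95.4% of the gained windows of 300 bases and in 96.1% of all H3K27ac windows, and GGGA was in 89.2% and 93.1%. The mean number of core words in a window was 5.57 in gained, 7.87 in lost and 7.27 in constant regions, beside a median GC content of 42.7%, 49.3% and 51%. Gained windows held the ETS word CCGGAA, which contains GGAA, in 2.53% against 7.31% of all windows, and the KLF word CACCC in 38.9% against 48.9%. The AP-1 word TGANTCA was in 11.5% against 8.68%, the forkhead word TGTTTAC in 5.53% against 4.06%, and the E-box CANNTG in 82.6% against 78.2%. The Runt word TGTGGT (22.6% and 22%), the IRF word GAAANNGAA (10.4% and 10.5%) and the CRE word TGACGTCA (0.273% and 0.529%) complete the words searched. These shares are descriptions of letters on both strands, and the part of base composition in them was not tested.

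Gained regions were weak and mostly distal. Their median width, after merging over the 8 lists, was 876 bp, against 872 bp for lost and 2700 bp for constant regions. The median fold enrichment over the local background was 3.77 and 3.48 in the 2 h libraries of replicates 1 and 2. Constant regions had 8.5 and 8.24 there, and 12.6 and 10.5 at 0 h. The other regions absent from both 0 h lists, where called, had 3.37 and 3.29 at 2 h, and lost regions had 4.41 and 4.12 at 0 h. The highest gained fold was 13.8 in replicate 1 and 8.44 in replicate 2. The 5 weakest gained regions all had a -log10 q of 1.31 in their weaker 2 h library, just inside the threshold of the lists. Just outside the rule, 831 regions were called in both 2 h libraries and in 1 of the 0 h libraries, where the 5 weakest had a -log10 q of 1.4 to 1.48. A further 10227 were called in 1 of the 2 h libraries and in neither 0 h library, of which 8292 were in replicate 1, whose 2 h list held 33664 peaks against 25141 for replicate 2. The 0 h lists held 25095 and 21468 peaks. Their median peak width was 1130 and 1330 bp, against 708 and 1020 bp at 2 h. Whether such differences between whole libraries account for gained calls was not tested.

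Calls also depend on depth. Mean coverage recovered from the lists was 4.25 and 4.3 fragments per base at 0 h and 3.96 and 4.02 at 2 h. In these lists 1 fragment was worth 0.803 and 0.68 at 0 h and 0.894 and 0.816 at 2 h. This was read here as scaling by MACS2 to an input, which the sources used here do not state. Coverage after this scaling was 3.42 and 2.93 at 0 h and 3.54 and 3.28 at 2 h. At the genome-wide background set by that coverage, a called summit needed at least 14 and 15 fragments at 0 h and 13 and 13 at 2 h, which is a fold of 2.77 and 2.85 at 0 h and of 2.78 and 2.71 at 2 h. Where the local background is higher the needed fold is lower, and gained regions were called at 2 h with folds down to 1.87 and 1.51. An absent call therefore means a signal under the threshold of that library, and whether any gained call owes to depth was not tested. With H3K27ac lists cut to equal length 653 regions were gained, and with peaks within 1 kb stitched 782. Replicates of 2 h weighed unequally, since 3779 regions met the rule without replicate 1 of 2 h and 10061 without replicate 2.

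The first question was when the acetylation call appeared. At 30 min, 51.5% of the gained regions had an H3K27ac peak in replicate 1 and 31.1% in replicate 2. At 1 h the shares were 44.8% and 33.9%. The shares of the 2 times overlapped, and their difference, 1 h minus 30 min, was -1.98 percentage points (exact two-sided permutation p = 1; 2 libraries against 2 cannot give a p below 0.333). The order of the times depended on the setting, since the difference turned to 2.14 with lists of equal length and to 1.79 with peaks within 1 kb stitched. It was -6.43 with a -log10 q of at least 3 and -0.974 with a fold of at least 3. With 1 defining library left out it was -4.04 to -2. Over all regions the shares were 64.9% and 50% at 30 min and 53.5% and 47.7% at 1 h. The other regions absent from both 0 h lists had 32.3% and 8.05% at 30 min and 13.8% and 10.3% at 1 h.

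In all, 361 gained regions (24.6%) were called in both 30 min libraries and 330 (22.5%) in both 1 h libraries. Among the other regions absent from both 0 h lists, these shares were 3.28% and 1.85%, for regions that were narrower (median 340 bp) and, by the rule, called in at most 1 library at 2 h. All 4 libraries of 30 min and 1 h had a peak at 177 gained regions (12.1%), beside 0.452% of those other regions. None of the 4 had one at 420 (28.7%), so that these were called at 2 h alone. Between these ends, 332 regions were called in 1 library, 286 in 2 and 250 in 3. A call in both 30 min libraries and in neither 1 h library was seen at 46 regions, and the reverse at 41.

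**Figure D1:**
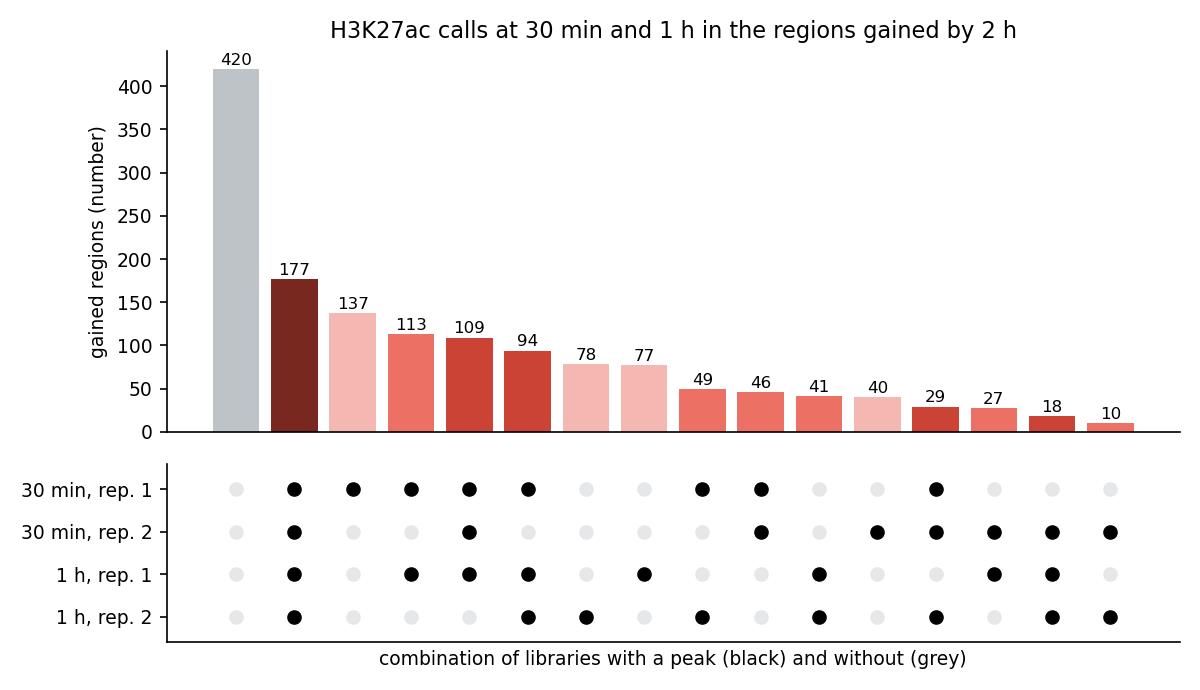
Number of gained regions (vertical axis) for each combination of H3K27ac calls at 30 min and 1 h, with the libraries that had a peak as black dots under each bar and darker bars for more libraries. The bar for no earlier call holds 420 regions and the bar for all 4 libraries holds 177.

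Regions called earlier were also the stronger ones at 2 h. From 0 to 4 earlier libraries, the median rank of the 2 h fold, as a percentile within the list, was 22.3, 26.2, 30.8, 32.3 and 39.7. The share within 1 kb of a TSS was 10%, 10.5%, 12.9%, 17.2% and 19.8%, for merged regions that each added peak can only widen. A stronger signal is called more readily in every library, so strength and time of onset cannot be told apart here, nor can more cells with the mark and more of it per cell.

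The strongest gained region lay in an intron of Psme4, which encodes a proteasome activator (chr11:30780883-30783442). No peak was called at 0 h. The fold was 8.65 and 8.79 at 30 min, 12.5 and 6.74 at 1 h, and 13.8 and 7.74 at 2 h in replicates 1 and 2, so the call was present from the first time on. The nearest 0 h peak was 6886 bp away, and neither Ikaros nor CHD4 was called in any library.

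An intron of Msh6, a mismatch repair gene, held the next one (chr17:87982527-87984338). Its fold was 5.68 and 4 at 30 min, 7.24 and 6.49 at 1 h and 9.14 and 7.29 at 2 h, the highest values being those of 2 h. The third region was intergenic, 29069 bp downstream of a TSS of the kinase gene Dyrk1a (chr16:94697965-94699658), with folds of 5.47 and 3.91, 10.7 and 6.3, and 6.52 and 8.2 at the 3 later times. It stood apart from other acetylation, with 108807 bp to the nearest 0 h peak. The fourth lay 52780 bp upstream of Galnt2, which starts O-glycosylation (chr8:124176360-124178611), and was called in all 6 libraries after 0 h with folds of 5.16 to 9.52.

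The regions ranked 5 to 10 were called in 2 to 4 of the 4 earlier libraries. The fifth lay in the immunoglobulin heavy chain locus (chr12:114134709-114135259). The sixth, in an intron of Gbf1, which encodes an exchange factor of the Golgi, was 40319 bp from any 0 h peak. The seventh lay 19066 bp upstream of Kif2c, a mitotic kinesin gene, at a non-coding TSS, and 2 more lay in an intron of Otub2, a deubiquitinase gene. The ninth covered the TSS of Fcrla, which encodes an Fc receptor-like protein of B cells (chr1:170927583-170929780). Its fold was 4.42 and 4.68 at 30 min, 6.19 and 3.58 at 1 h, and 5.38 and 8.24 at 2 h. No Ikaros peak was called at any of the 10 strongest regions, and at least 1 Ikaros library had a peak at 9.97% of all gained regions. CHD4 was called in replicate 2 of 2 h alone at the Msh6 region (fold 2.86), the Kif2c region (3.11) and both Otub2 regions (3.04 each).

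Among the 420 regions called at 2 h alone, the 5 with the highest ranks lay near Ints7, a subunit gene of the Integrator complex, Cdk8, which encodes the kinase of Mediator, Zcchc7, Chst3, a chondroitin sulfotransferase gene, and Epb41l2, a gene of the membrane skeleton. The Ints7 region (chr1:191598695-191599784) had a fold of 5.6 and 4.46 at 2 h. At the other 4, the folds were 4.55 to 4.75 in replicate 1 and 4.24 to 4.46 in replicate 2. None of the 5 had an Ikaros or a CHD4 peak in any library, as was the case for 82.3% of all gained regions.

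**Figure D2:**
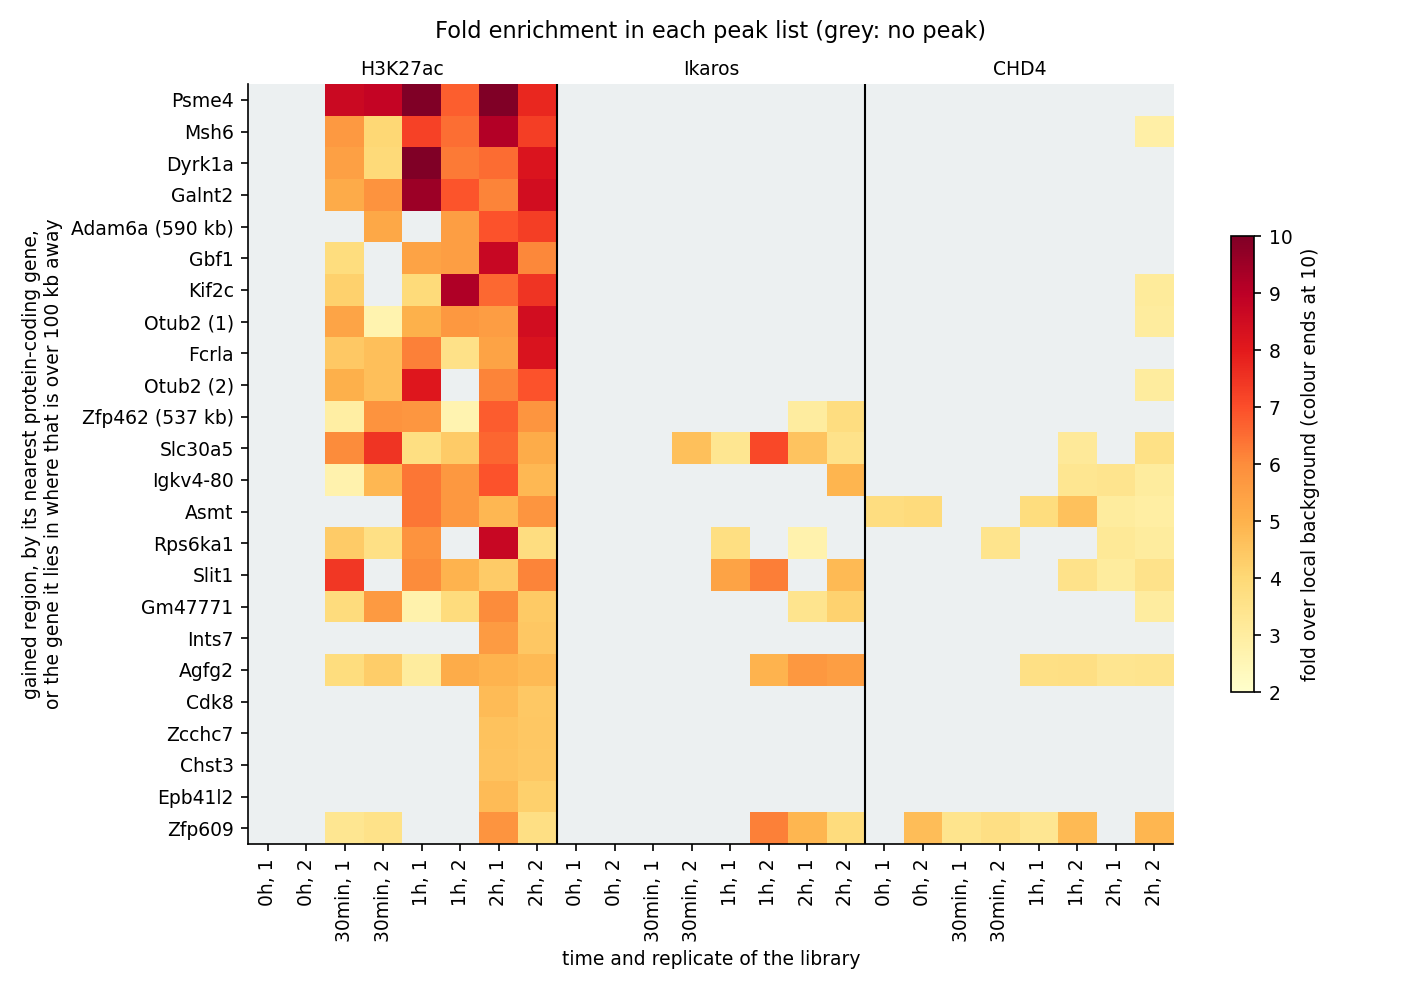
Fold enrichment (colour) of 24 named gained regions (rows) in the 24 peak lists (columns, by target, time and replicate), with grey where no peak was called. H3K27ac peaks at the 10 strongest regions started before 2 h, the 5 regions of Ints7, Cdk8, Zcchc7, Chst3 and Epb41l2 had peaks at 2 h only, and Ikaros and CHD4 peaks were few.

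The second question was whether Ikaros or CHD4 was called where acetylation was gained. Ikaros was called at 0.614% and 0.956% of the gained regions at 0 h, 1.16% and 1.37% at 30 min, 3% and 4.64% at 1 h and 4.3% and 5.46% at 2 h in replicates 1 and 2. Both replicates of 1 h and 2 h were above every library of 0 h and 30 min. This rise with time passed the test (Spearman's rho = 0.927, exact permutation p = 0.00317 and 0.0156 after adjustment over 8 tests). Pearson's r was 0.909 (exact permutation p = 0.00198, or 0.00714 adjusted over 4 such values). Without the 2 h libraries, the 2 farthest from the median time, r was 0.874. With Ikaros lists of equal length the rise no longer passed (rho = 0.712, exact permutation p = 0.0619, adjusted p = 0.0825), and among the other alternatives its adjusted p stayed at or under 0.0317.

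Set against all other regions pooled, the rise in percentage points gave no difference that passed the test. Ikaros peaks became more frequent over all H3K27ac regions as well, from a mean of 17 ± 2.18% at 0 h to 25.6 ± 1.6% at 2 h (SD, n = 2). In gained regions the mean went from 0.785 ± 0.241% to 4.88 ± 0.821%, and in the other regions absent from both 0 h lists from 0.766 ± 0.229% to 2.11 ± 0.168%, and no test compared these rises as ratios. The share in gained minus the share in all other regions had a rho of -0.683 with time (exact permutation p = 0.0825, adjusted p = 0.107), which did not pass the threshold and which changed sign with Ikaros lists of equal length (rho = 0.537, adjusted p = 0.19). Over 8 libraries the share in gained regions was below that in lost regions in 8 of 8, by -15.4 ± 8.07 percentage points (gained minus lost, mean ± SD; exact two-sided sign-flip p = 0.00781, the smallest possible, adjusted p = 0.0156). The lost regions carried Ikaros in 6.59% to 31.1%. Constant regions, at 26.7% to 62.4%, were above the gained ones in 8 of 8 libraries too (difference -45 ± 11.5, exact sign-flip p = 0.00781, adjusted p = 0.0156), and they are wider by the medians given above. Both comparisons kept their direction and their side of the threshold under every alternative run, but their size moved. With Ikaros lists of equal length the differences were -7.92 from lost and -26.8 from constant regions. The difference from lost regions was -9.94 without replicate 1 and -7.89 without replicate 2 of H3K27ac at 0 h, which changes the regions.

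Counted by region, 31 gained regions (2.12%) had an Ikaros peak in both 2 h libraries, against 19.9% of all regions, and 6 (0.41%) in both 0 h libraries, against 12.8%. At least 1 of the 8 Ikaros libraries had a peak at 146 gained regions (9.97%), against 38.8%. Of the other regions absent from both 0 h lists, 0.934% had Ikaros in both 2 h libraries and 5.08% in at least 1 library. Of the lost regions, 20.1% had Ikaros in both 0 h libraries, 8.79% in both 2 h libraries and 48.4% in at least 1 library. Of the 31 regions, 8 had an Ikaros peak in a 0 h library as well, 6 had CHD4 in both 2 h libraries, and 7 lay within 1 kb of a TSS. An Ikaros peak of 2 h lay within 5 kb of 683 gained regions (46.6%), beside 46.4% of the other regions absent from both 0 h lists, 35.3% of lost, 75.1% of constant and 56.6% of all regions. The median distance to such a peak was 5628 bp for gained and 14075 bp for lost regions, so by proximity the order of gained and lost was the reverse of that by overlap.

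The 5 Ikaros-bound regions with the highest H3K27ac ranks are shown by the 60 bases around the summit of the replicate 1 peak at 2 h. This display was chosen after their values were seen. Capitals mark the core words again.
Zfp462 upstream summit, chr4:54406463-54406522, + strand: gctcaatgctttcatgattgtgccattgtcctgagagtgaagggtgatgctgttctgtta
Slc30a5 upstream summit, chr13:100866299-100866358, + strand: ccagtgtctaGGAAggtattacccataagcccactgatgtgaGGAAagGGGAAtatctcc
Gm47771 summit, chr10:17564824-17564883, + strand: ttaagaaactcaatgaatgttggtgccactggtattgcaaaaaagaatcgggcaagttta
Agfg2 upstream summit, chr5:137701600-137701659, + strand: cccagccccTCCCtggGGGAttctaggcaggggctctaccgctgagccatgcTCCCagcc
Trip4 summit, chr9:65834305-65834364, + strand: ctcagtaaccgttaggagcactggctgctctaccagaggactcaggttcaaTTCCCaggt

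The summits held 0, 4, 0, 3 and 2 core words. The first region (chr4:54405595-54407330), 537718 bp upstream of Zfp462, had Ikaros folds of 3.02 and 3.75 at 2 h and no Ikaros peak earlier, whereas its H3K27ac was called from 30 min on, with folds of 2.91 and 5.84. At the second, in an intron of Gm29502 and 32349 bp upstream of the zinc transporter gene Slc30a5 (chr13:100865776-100866458), Ikaros was called in 1 library at 30 min (4.64), in both at 1 h (3.37 and 7.1) and in both at 2 h (4.54 and 3.53). H3K27ac was there at 30 min (6.03 and 7.48). The third, in Gm47771, had Ikaros at 2 h alone (3.41 and 4.16), the fourth, 15795 bp upstream of Agfg2, in 1 library at 1 h and both at 2 h (4.95, 5.71 and 5.51), and the fifth, in an intron of Trip4, likewise (6.19, 4.9 and 3.82). None had an Ikaros peak at 0 h, and all 5, chosen for a high H3K27ac rank, had H3K27ac in both 30 min libraries. Over the 31 Ikaros-bound regions this held for 14 (45.2%), beside 24.6% of all gained regions, and 1 of the 31 had no H3K27ac call before 2 h.

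CHD4 was called at 0.341% and 1.43% of the gained regions at 0 h, 0.683% and 1.02% at 30 min, 1.43% and 2.32% at 1 h and 3.28% and 9.01% at 2 h. The 2 h libraries were the highest, and they also differed most from each other, with 5523 and 9593 CHD4 peaks in all. The rise passed the test (Spearman's rho = 0.834, exact permutation p = 0.0159 and 0.0254 after adjustment). Pearson's r was 0.777 (exact permutation p = 0.00357, or 0.00714 adjusted), and 0.639 without 2 h. The rise did not pass with a -log10 q of at least 3 for CHD4 (rho = 0.593, adjusted p = 0.189) or without 1 of several libraries. The exact permutation test then gave an adjusted p of 0.0584 without replicate 1 of 0 h, 0.0508 and 0.0813 without replicates 1 and 2 of 1 h, 0.0783 without either replicate of 2 h, and 0.0559 without replicate 2 of H3K27ac at 0 h.

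Set against all other regions, the CHD4 share in gained regions had no trend that passed (rho = -0.195, exact permutation p = 0.672, adjusted p = 0.672). This depended on list length: with CHD4 lists of equal length rho was 0.976 (exact permutation p = 0.000794, adjusted p = 0.00635), so that the gained regions then rose relative to the others. Without replicate 1 of CHD4 at 0 h, rho was 0.0918. The mean difference from lost regions was -2.39 ± 4.08 percentage points, with gained below lost in 6 of 8 libraries (exact sign-flip p = 0.0938, adjusted p = 0.107). The 2 exceptions were the 2 h libraries, where lost regions carried CHD4 in 1.65% and 7.69%. Without replicate 1 or replicate 2 of H3K27ac at 2 h, which changes the regions, it was -4.25 or -4.17 and passed (exact sign-flip, adjusted p = 0.0125 and 0.0156). Constant regions carried CHD4 in 13.2% to 45.4% and were above the gained ones in 8 of 8 libraries (-23.6 ± 7.45, exact sign-flip p = 0.00781, adjusted p = 0.0156). This difference was -3.61 with a -log10 q of at least 3 for CHD4 and -12.7 with CHD4 lists of equal length, and it passed in both.

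**Figure D3:**
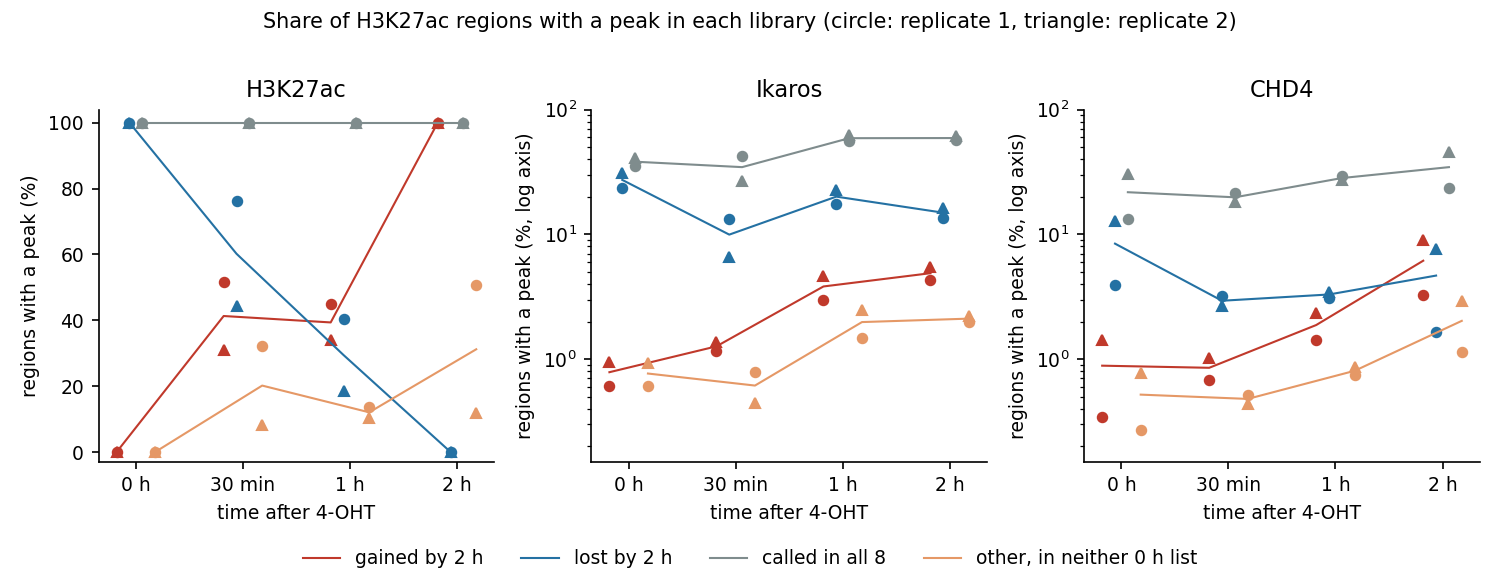
Share of regions with an H3K27ac, Ikaros or CHD4 peak (vertical axis, percent, log axis for Ikaros and CHD4) at each time after 4-OHT, with circles for replicate 1, triangles for replicate 2 and lines through the means of 2. Ikaros in gained regions went from 0.785% at 0 h to 4.88% at 2 h on average and stayed below the lost and constant regions in every library.

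By region, 20 gained regions (1.37%) had a CHD4 peak in both 2 h libraries, beside 7.64% of all regions, and 5 (0.341%) in both 0 h libraries, beside 4.56%. At least 1 CHD4 library had a peak at 175 (11.9%), beside 28.8%. The other regions absent from both 0 h lists had 0.366% in both 2 h libraries and 4.71% in at least 1 library, and lost regions had 0.824% and 20.2%. Of the 20, 8 had no Ikaros peak in any library and 5 had a CHD4 peak at 0 h. No Ikaros or CHD4 peak of any library overlapped 1205 gained regions (82.3%), beside 57.2% of all regions, 49.7% of lost regions and 91.9% of the other regions absent from both 0 h lists.

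The CHD4-bound region with the highest H3K27ac rank covered the kappa light chain segment Igkv4-80 (chr6:69015828-69017562), with CHD4 folds of 3.35 in replicate 2 at 1 h and 3.42 and 3.06 at 2 h. An intron of Asmt, the gene of the last enzyme of melatonin synthesis, had CHD4 already at 0 h (3.78 and 3.86), at 1 h (3.8 and 4.62) and at 2 h (3.06 and 2.92) and no Ikaros peak. At 30 min no CHD4 peak was called there. The others lay 22811 bp downstream of the kinase gene Rps6ka1, in an intron of Slit1 and upstream of Agfg2. At the Agfg2 region CHD4 was called in both libraries of 1 h (3.65 and 3.68) and 2 h (3.4 and 3.42), so CHD4 and Ikaros calls appeared there at the same time.

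The third question was where the gained regions lie. Of the 1465, 192 (13.1%) lay within 1 kb of an annotated TSS, against 23.4% of lost, 64.3% of constant and 13.3% of the other regions absent from both 0 h lists. A further 449 (30.6%) lay 1 to 5 kb away, 507 (34.6%) 5 to 20 kb, 304 (20.8%) 20 to 100 kb and 13 farther. At the centre of the region the annotation had an intron for 964 (65.8%), no gene for 387 (26.4%), a non-UTR exon for 72 and a UTR for 42. Lost regions were intronic in 49.8% and constant ones in 48.7%. Gained regions were found on all chromosomes but Y. Soft-masked repeats made up over 50% of the sequence in 9.83% of gained, 3.48% of lost and 7.49% of all regions, and in 13.6% of the other regions absent from both 0 h lists.

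Most gained regions lay within 5 kb of acetylation that was already called at 0 h. The median gap to the nearest 0 h peak was 2195 bp, and 444 regions (30.3%) lay within 1 kb of one, 513 (35%) 1 to 5 kb, 307 (21%) 5 to 20 kb and 201 (13.7%) farther. The other regions absent from both 0 h lists had nearly the same spread (median 2098 bp, 30.6% within 1 kb). Lost regions lay farther from the nearest 2 h peak, at a median of 14042 bp and with 12.5% within 1 kb.

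**Figure D4:**
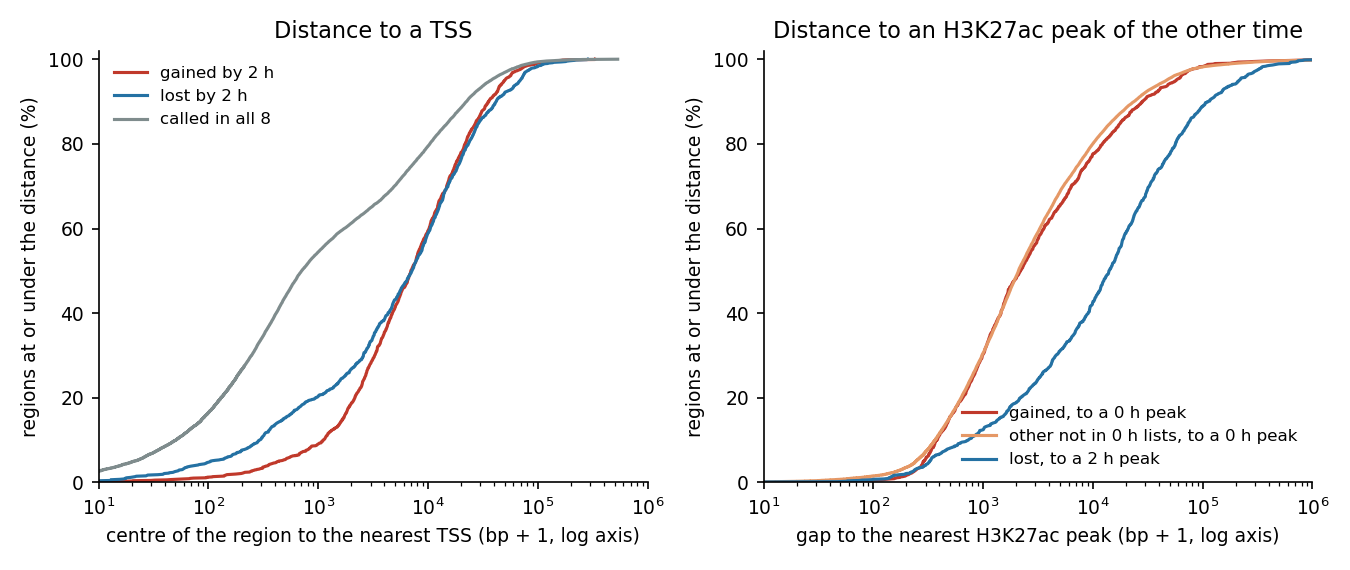
Cumulative share of regions (vertical axis, percent) by distance to the nearest TSS (left) and by gap to the nearest H3K27ac peak of the other time (right), on log axes in bp with 1 added. The curve of the gained regions follows that of the other regions absent from both 0 h lists in the right panel, with medians of 2195 and 2098 bp.

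The gained regions had 877 protein-coding genes as nearest within 100 kb, 7.92% of the 11067 genes nearest to any H3K27ac region, and 192 regions had none in reach. Of these genes, 661 had 1 gained region, 216 had 2 or more and 74 had 3 or more. Lost regions had 840 such genes, and 65 genes had both, which is 7.41% of the former and 7.74% of the latter. Genes were also grouped by their number of nearest H3K27ac regions, which counts the gained and lost regions themselves. At genes with 1 to 4 regions, 1.85% of the regions were gained and 3.58% lost, at genes with 5 to 19 the shares were 4.21% and 2.42%, and at the 169 genes with 20 or more they were 6.81% and 0.744%.

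Foxp1, Pde4d, Il7r and Ebf1 were among the genes with the most gained regions. Foxp1, which encodes a forkhead factor needed in early B cells, had 15 of its 136 regions gained (11%) and 0 lost, spread from 464 to 81321 bp of a TSS. Their folds at 2 h were 2.7 to 7.31 in replicate 1 and 3.02 to 4.09 in replicate 2, and 8 of the 15 were called at 2 h alone, beside 28.7% of all gained regions. The cyclic AMP phosphodiesterase gene Pde4d had 10 of 111.

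Il7r, the receptor chain through which IL-7 sustains pre-B cell growth, had 9 of its 40 regions gained (22.5%) and 0 lost. The strongest, 24815 bp upstream of the TSS (chr15:9554991-9557495), had a fold of 3.16 in 1 library at 30 min, 4.44 and 3.58 at 1 h and 5.74 and 4.81 at 2 h. Ebf1, a pioneer factor of the B lineage, had 8 of 79 gained (10.1%), 20512 to 91842 bp from the TSS, each called in 1 to 4 of the earlier libraries. Over all libraries, 1 of the 10 gained regions of Pde4d had an Ikaros peak and 2 a CHD4 peak, 2 of the 9 of Il7r had a CHD4 peak, and those of Foxp1 and Ebf1 had neither, beside 9.97% of all gained regions with Ikaros and 11.9% with CHD4 in at least 1 library.

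By function, gains were counted over lists of genes, as the share of the H3K27ac regions nearest to each list, beside 3.73% gained and 2.78% lost over all regions. Transcription factors of the B lineage had the largest number, though not the largest share, with 60 of 697 regions gained (8.61%) and 3 lost (0.43%). Against 7.92% of all genes nearest to an H3K27ac region, 15 of the 32 genes (46.9%) had a gained region. These were Pax5, Ebf1, Foxo1, Foxp1, Ikzf1, Spi1, Bcl11a, Sox4, Runx1, Runx3, Mef2c, Mef2d, Pou2af1, Zeb2 and Myb. The list holds 12 of the 169 genes with 20 or more regions, where 9.19% of 555 regions were gained, against 6.81% at all such genes. Mef2c had 8 of 55 regions gained, Myb 7 of 42 and Ikzf1, the gene of Ikaros itself, 4 of 34 (11.8%). The strongest gained region of the list lay 18158 bp upstream of Pou2af1, a B cell coactivator (chr9:51194204-51195550), with folds of 4.63 and 5.37 at 30 min, 6.03 and 4.35 at 1 h and 6.13 and 5.19 at 2 h.

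Pre-B identity genes had 18 of 164 regions gained (11%) and 1 lost, but 17 of the 18 came from Ebf1 and Il7r and the other from Pax5. Ebf1 and Il7r held 119 of the 164 regions, and Ebf1 and Pax5 are on the transcription factor list too. Genes of B cell maturation had 4 of 60, at Cd69, an activation antigen, Ltb (lymphotoxin beta) and Fcrla, and 3 were lost. Receptor signalling genes had 8 of 195 (4.1%), near the background, at the kinase gene Fyn, Plcg2, the PI3 kinase adaptor Pik3ap1, the PI3 kinase inhibitor Pik3ip1 and the phosphatase Ptpn6. Of these 195 regions, 3 were lost (1.54%), 1 of them at Plcg2. Regulators of quiescence and the cell cycle had 6 of 105 (5.71%) at Rb1, Ccnd3, Foxo3, Txnip and Sesn1, with 1 lost. At Sesn1, a stress-response gene, 2 of 8 regions were gained, with folds of 6.13 and 3.86 in the stronger. NF-kB pathway genes had 3 of 56 gained, at Nfkb1, Rela and Tnfaip3, and 2 lost (3.57%).

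The remaining lists had gained shares under the background of 3.73%. Interferon response genes had 2 of 91 regions gained (2.2%), both at Irf2, and 6 lost (6.59%). Genes of sterol synthesis and uptake had 1 of 101, at Srebf2, and 8 lost (7.92%). Migration and adhesion genes had 2 of 124, at the integrin genes Itga4 and Itga6, and 4 lost, and immediate early genes had 0 of 81 and 2 lost. BCL2 family genes had 2 of 59, both at Bcl2l1, and 1 lost. Marker lists of other lineages had few regions in all: T cell genes had 1 of 41 gained (Cd28) and 2 lost, myeloid genes 0 of 20 and 1 lost, erythroid and megakaryocyte genes 0 of 17 and 1 lost, and fibroblast and epithelial genes 0 of 2 and 0 lost. The counts are small, most lists differ from the background by a few regions, and no list was tested.

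**Figure D5:**
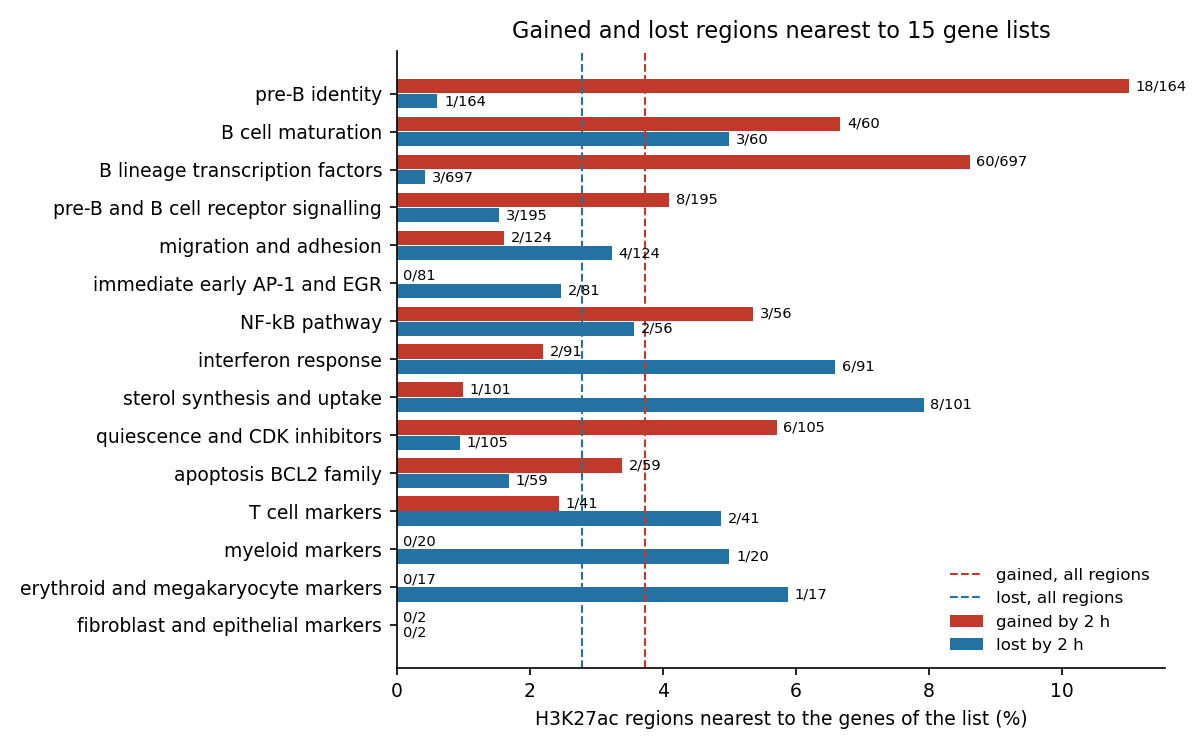
Share of the H3K27ac regions nearest to the genes of each of 15 lists (horizontal axis, percent) that was gained (red) or lost (blue) by 2 h, with the counts beside the bars and dashed lines for all regions at 3.73% and 2.78%. Pre-B identity genes (18 of 164) and B lineage transcription factors (60 of 697) have the longest red bars. Both lists hold Pax5 and Ebf1, whose regions are counted in each.

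Because 2 of the named regions lay in immunoglobulin loci, gains there were counted after their values were seen. In the kappa light chain locus (chr6:67555497-70726966) 31 of 175 regions were gained (17.7%), 0 were lost and 27 were constant, and in the heavy chain locus 16 of 273 were gained (5.86%) and 5 lost, beside 3.73% gained and 2.78% lost over all regions. In the lambda light chain locus 1 of 3 regions was gained. The 31 kappa regions lay between positions 68049950 and 69439471, among the variable segments, and 12 overlapped an annotated segment. H3K27ac was called at 17 and 14 of them at 30 min and at 15 and 16 at 1 h, beside 51.5%, 31.1%, 44.8% and 33.9% of all gained regions in these libraries. Variable segments are similar in sequence, so reads there can be placed less surely than elsewhere. Ikaros was called in any library at 2 of the 31 and CHD4 at 5, beside 9.97% and 11.9% of all gained regions.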

How the data were processed

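ChIP-seq peak lists of Ikaros, CHD4 and H3K27ac in B3 cells were used, 1 per library (24 in all), and the 8 input libraries were not analysed here. The authors aligned reads to mm10 with Bowtie2 2.4.2, marked duplicates with Picard 2.23.7 and called peaks with MACS2 2.2.7.1, in broad mode for CHD4. The methods give this for 0 h, 1 h and 2 h, and settings at 30 min and the input of each library are not given in the sources used here. Each deposited list gives a score (not used), a fold enrichment (ratio) over its local background, −log10 values of p and q and, for narrow peaks, the summit. Reads per region are not part of them, which leaves no room for a count model.

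Groups came from the library titles. H3K27ac lists were merged, and an overlap of at least 1 bp counted as a call. Coverage was recovered from the fold and p of narrow peaks with −log10 p under 40, for which at least 99.96% of H3K27ac pileups were whole fragments (tolerance 0.05). CHD4 depth is unknown. TSSs and genes came from GENCODE M21, and sequences from GRCm38, with Python 3.11.15 and SciPy 1.17.1. Trends used exact permutation of 40320 pairings and differences exact sign-flips of 8 libraries, all two-sided, with Benjamini-Hochberg adjustment over 8 tests. The scripts were tested on simulated data.

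Members, lists and tests were chosen with earlier results of these data known. Regions named were the 10 with the highest mean percentile rank of fold over both 2 h lists, the first 5 in this order with Ikaros in both 2 h libraries, with CHD4 in both, called in all 4 libraries of 30 min and 1 h, and called in none of these, plus the 5 genes with the most members and each member's gene on a list. A gene that the rule also names is not reported here. Alternatives were a −log10 q or a fold of at least 3, lists of equal length, an overlap of 50%, stitching within 1 kb, Ikaros or CHD4 within 1 kb, a 3 kb promoter, each library left out, and a replicate block.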

Additional observations from a re-analysis of the deposited data

How the results depend on the processing

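The number of gained regions was 653 with H3K27ac lists of equal length and 782 with peaks within 1 kb stitched, and 1655 to 10061 with 1 of the 4 defining libraries left out, where 3779 (without replicate 1 of 2 h) and 10061 (without replicate 2) follow from needing 1 library only. The 1 h minus 30 min difference turned to 2.14 and 1.79 percentage points under the first 2 settings. It was -6.43 with a −log10 q of at least 3 and -4.04 to -2 with a defining library left out. Promoter shares were 15.1% with a −log10 q of at least 3, 15.9% with equal lists, 31.5% within 3 kb and 12% to 14.9% with a library left out. The share within 1 kb of a 0 h peak was 25.9%, 23.1% and, by construction, 0% under the stricter q, equal lists and stitching, and 21.4% to 31% with a library left out.

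With Ikaros and CHD4 lists of equal length, rho was 0.712 for Ikaros in gained regions, 0.537 for gained minus other regions and 0.976 for the CHD4 difference, and the cause was not tested. For CHD4 in gained regions, rho was 0.593 with the stricter q, and 0.759 to 0.973 with a library left out. The CHD4 difference from other regions ranged from -0.679 to 0.0918 with a library left out, being above 0 without replicate 1 of 0 h. The CHD4 difference from lost regions ranged from -4.25 to -0.114, and passed (exact sign-flip) without replicate 1 or 2 of H3K27ac at 2 h (-4.25 and -4.17). All other results kept direction and side of the threshold.

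Differences between replicates at single regions correlated between times by -0.032 to 0.09, so no pairing was seen by region. Such a correlation cannot show a shift of a whole library. For H3K27ac, replicate 1 had the longer list at every time. Its lists held 25095, 29408, 27214 and 33664 peaks in order of time, against 21468, 23214, 23701 and 25141. With the replicate block, rho was 0.927 and 0.732 for Ikaros and CHD4 in gained regions and -0.683 and -0.146 for the differences from other regions, and no call changed. CHD4 depth is unknown, and 2 libraries a time limit every test.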
